A study of Homo sapiens with 16 samples.

Results

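The ISG15 conjugation system was followed across 16 RNA libraries of NCI-H1944, an established human line from a lung adenocarcinoma. It was taken as 6 genes of the 60612 in the deposited table, chosen by symbol. ISG15 is the modifier, UBA7, UBE2L6 and HERC5 attach it, and USP18 removes it. HERC6, the remaining member, is a ligase of the same family as HERC5. All 6 passed the filter on low counts and were tested among 17950 genes. The 8 groups hold 2 libraries each. In each of 4 lines, cells labelled DKO, STINGsg, MAVSsg or SCR were given MPS1i or DMSO. The MPS1i treatment was BAY-1217389 at 100 nM for 48 h, which blocks MPS1, a kinase of the spindle checkpoint encoded by TTK, followed by 24 h without drug, and the solvent DMSO followed the same schedule. By genotype label, DKO is a knockout of both STING and MAVS, STINGsg a STING knockout, MAVSsg a MAVS knockout and SCR wild type. STING relays DNA sensing and MAVS relays RNA sensing. The labels do not say whether a line is 1 clone, nor whether replicates were separate cultures. The p-values therefore rest on the spread between these libraries, which may be technical.

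The labels were checked first on the targeted genes, in CPM (counts scaled to library totals) under DMSO. STING1 had a mean of 4.86 ± 0.05 CPM in the DKO-labelled line, 3.74 ± 0.06 CPM in the STING line and 8.27 ± 0.03 CPM in SCR (SD, n = 2), log2 differences from SCR of -0.77 (edgeR adjusted p = 3.98e-06) and -1.14 (2.10e-07). MAVS RNA was no lower in the lines labelled for it, at 215 ± 9.83 CPM in DKO, 195 ± 0.89 CPM in MAVS and 186 ± 4.28 CPM in SCR (SD, n = 2). An edit that stops a protein need not lower its transcript, so MAVS counts say nothing for or against these labels. The text therefore speaks of the MAVS-labelled and the DKO-labelled line, shortened to MAVS and DKO beside values. STING1 RNA also differed where STING was not targeted. It rose with MPS1i in SCR (log2 1.81 ± 0.09, SE, edgeR adjusted p = 5.66e-15). After MPS1i it was lower in the MAVS-labelled line than in SCR (-0.64 ± 0.08, 3.33e-06). A lower STING1 count is therefore not specific to an edit, and the STING line too is named by its label.

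ISG15 is a ubiquitin-like protein that interferon induces. UBA7 (the E1 enzyme) activates it, UBE2L6 (the E2) carries it, and HERC5 is the main E3 ligase that places it on proteins in human cells, while in mouse cells that role falls to HERC6. USP18 cleaves ISG15 from its targets and, apart from that activity, binds the interferon receptor chain IFNAR2 and damps signalling. Free human ISG15 is known to stabilise USP18. Many interferon-induced genes carry an interferon-stimulated response element (ISRE) near their start, which is bound by complexes that contain IRF9 and by other IRF proteins.

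Sequences before the RefSeq start of 3 members are shown because they differ in matches to the letters of an ISRE. RefSeq windows of build GRCh38.p14, from 250 bases before to 50 bases after the start, matched 4 of the 6 members: ISG15, HERC5, HERC6 and UBE2L6 (2 windows), and not UBA7 or USP18. The stretch printed runs from base -150 to base -51, 5′ to 3′ on the gene's strand (plus for all 3), at chr1:1013347-1013446 for ISG15, chr4:88456969-88457068 for HERC5 and chr4:88378702-88378801 for HERC6. Capitals mark matches, on either strand, to an ISRE core of GAAA, 2 bases of any kind and GAAA.
ISG15: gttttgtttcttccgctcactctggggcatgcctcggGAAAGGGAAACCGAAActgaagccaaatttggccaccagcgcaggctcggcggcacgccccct
HERC5: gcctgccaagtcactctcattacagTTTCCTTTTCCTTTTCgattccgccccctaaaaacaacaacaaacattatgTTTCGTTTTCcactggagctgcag
HERC6: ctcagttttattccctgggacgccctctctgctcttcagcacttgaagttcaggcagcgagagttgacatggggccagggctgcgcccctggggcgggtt
The ISG15 window held 2 overlapping matches, from base -113 to base -98. The HERC5 window held 3 matches on the other strand, 2 of them overlapping from base -125 to base -110 and 1 from base -74 to base -65. The windows of HERC6 and UBE2L6 held none, and 3.57% of all 35116 windows held at least 1. None of the 5 windows of members held the GAS letters TTCNNNGAA, which 7.66% of all windows held. A match describes letters and not binding. The windows follow RefSeq starts, which equal the start of the deposited span, given below, only for HERC5. The ISG15 and UBE2L6 windows lie inside the deposited spans, and the HERC6 window crosses the start of its span. For these 3 genes, bases before the deposited start were therefore searched in part or not at all.

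In the deposited table, whose build is GRCh38, ISG15 spans chr1:1001138-1014540 (plus strand) and UBA7 chr3:49805209-49813953 (minus strand). UBE2L6 spans chr11:57551656-57568284 (minus) and USP18 chr22:18150170-18177397 (plus). HERC6, at chr4:88378739-88443097, and HERC5, at chr4:88457119-88506163, are neighbours on the plus strand, 14021 bases apart.

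The MPS1i pulse raised all 6 members in the STING line, in the MAVS-labelled line and in SCR, and no member passed the test in the DKO-labelled line. Calls were made at an adjusted p under 0.05 over all genes tested (edgeR quasi-likelihood F-test, Benjamini-Hochberg adjustment). The share of all tested genes called higher was 15.5% in the STING line, 17.1% in the MAVS-labelled line and 26.0% in SCR, and the share called lower was 13.9%, 16.3% and 24.0%. In DKO 6.53% were called higher and 8.22% lower. The median log2 fold change of the members was 0.12 in DKO, 3.57 in STING, 2.72 in MAVS and 3.92 in SCR, beside medians over all tested genes of 0.004, 0.002, 0.02 and 0.03 in the same order. In bulk RNA, more cells that express a gene and more RNA per cell cannot be told apart.

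ISG15 itself was near 9 CPM after MPS1i in the DKO-labelled line and far higher in the other lines. It had 9.24 and 9.60 CPM in MPS1i libraries of the DKO-labelled line, against 6.16 and 4.58 CPM in its DMSO libraries. In the STING line it had 152 and 173 CPM after MPS1i, against 7.23 and 8.27 CPM under DMSO. MPS1i libraries lay above DMSO libraries in both lines, by a wide margin in the STING line. The MAVS-labelled line had 313 and 322 CPM after MPS1i, against 56.4 and 41.2 CPM under DMSO. SCR had 549 and 476 CPM after MPS1i, against 35.1 and 32.6 CPM under DMSO. Again the groups did not overlap, and the pair of DMSO libraries of the MAVS-labelled line was spaced the widest for its level. The fold change of MPS1i over DMSO was 21.1 in STING (log2 4.40 ± 0.18, SE), 6.45 in MAVS (2.69 ± 0.14) and 15.1 in SCR (3.92 ± 0.14), with adjusted p of 7.80e-08, 3.16e-07 and 8.36e-09 in that order. In DKO the fitted fold was 1.78 (log2 0.83 ± 0.24, SE), with an adjusted p of 0.0519 in the fit of all groups. ISG15 was called there by DESeq2 (adjusted p = 1.15e-04) and by edgeR when only the DKO groups were fitted (0.00184).

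UBA7, the E1 enzyme, was the member with the fewest reads for its length in SCR after MPS1i, and it had the largest log2 fold change of the 6 in SCR and in the MAVS-labelled line. It had 0.784 and 1.09 CPM after MPS1i in the DKO-labelled line, against 1.45 and 1.03 CPM under DMSO, and these groups overlapped. In the STING line it had 6.52 and 6.41 CPM after MPS1i, against 0.821 and 1.31 CPM under DMSO. In the MAVS-labelled line it had 14.9 and 16 CPM after MPS1i, against 1.95 and 1.98 CPM under DMSO. Both MPS1i libraries of each of these lines lay above both DMSO libraries. SCR had 36.3 and 36.4 CPM after MPS1i, against 1.38 and 1.33 CPM under DMSO. The fold was 6.14 in STING (log2 2.62 ± 0.19, SE, adjusted p = 4.81e-11), 7.87 in MAVS (2.98 ± 0.15, 1.85e-14) and 26.7 in SCR (4.74 ± 0.14, 6.76e-20), while DKO gave log2 -0.42 ± 0.25 (adjusted p = 0.299). UBA7 rested on few reads in the other 5 groups, with 20 and 27 counts in the STING line under DMSO.

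UBE2L6, the E2 enzyme, kept a level near 20 CPM in the DKO-labelled line under both treatments. It had 19.8 and 22.8 CPM after MPS1i there, against 22.3 and 19.9 CPM under DMSO, and the groups overlapped. In the STING line it had 80.9 and 88.4 CPM after MPS1i, against 16.4 and 19.8 CPM under DMSO. In the MAVS-labelled line it had 121 and 136 CPM after MPS1i, against 32 and 31 CPM under DMSO. The MPS1i libraries of both lines lay far above their DMSO libraries. SCR had 207 and 208 CPM after MPS1i, against 20.8 and 21.9 CPM under DMSO. The fold was 4.70 in STING (log2 2.23 ± 0.09, SE, adjusted p = 5.27e-15), 4.08 in MAVS (2.03 ± 0.08, 4.19e-15) and 9.76 in SCR (3.29 ± 0.08, 1.99e-19). In DKO the log2 difference was 0.003 ± 0.09 (adjusted p = 0.989).

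HERC5, the ligase, was nearly silent in the DKO-labelled line and had the largest fold change of all members in the STING line. It had 1.05 and 0.993 CPM after MPS1i in the DKO-labelled line, against 0.650 and 0.611 CPM under DMSO, from 17 to 36 counts a library. In the STING line it had 54.9 and 52.3 CPM after MPS1i, against 1.36 and 1.26 CPM under DMSO. The STING libraries after MPS1i stood far above both their DMSO libraries and the DKO-labelled line. The MAVS-labelled line had 90.3 and 89.3 CPM after MPS1i, against 12.3 and 12.8 CPM under DMSO. SCR had 170.0 and 162 CPM after MPS1i, against 10.8 and 11.0 CPM under DMSO. In no line did the MPS1i and DMSO libraries overlap. The log2 fold change was 0.71 ± 0.22 in DKO (SE, adjusted p = 0.0896), 5.34 ± 0.10 in STING (4.38e-23), 2.85 ± 0.07 in MAVS (7.62e-21) and 3.93 ± 0.06 in SCR (1.33e-24).

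HERC6, the neighbour of HERC5 and a ligase of the same family, had the smallest fold change of the 6 in SCR and in the MAVS-labelled line. It had 10.6 and 10.9 CPM after MPS1i in the DKO-labelled line, against 10.9 and 12.9 CPM under DMSO. The STING line had 131 and 124 CPM after MPS1i, against 17.2 and 14.1 CPM under DMSO. The DKO-labelled groups lay close together and the STING groups far apart. The MAVS-labelled line had 149 and 156 CPM after MPS1i, against 56.6 and 63.7 CPM under DMSO. SCR had 177 and 176 CPM after MPS1i, against 48.8 and 49.5 CPM under DMSO. After MPS1i the STING, MAVS-labelled and SCR libraries of HERC6 were closer to each other, as ratios and not in CPM, than those of any other member. The log2 fold change was -0.16 ± 0.10 in DKO (SE, adjusted p = 0.320), 3.02 ± 0.08 in STING (3.49e-20), 1.35 ± 0.07 in MAVS (2.44e-14) and 1.84 ± 0.07 in SCR (9.84e-18).

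USP18, the protease that removes ISG15, had 3.46 and 4.78 CPM after MPS1i in the DKO-labelled line, against 3.67 and 3.14 CPM under DMSO, and these overlapped. In the STING line it had 88.0 and 87.3 CPM after MPS1i, against 4.56 and 5.55 CPM under DMSO. The MAVS-labelled line had 124 and 118 CPM after MPS1i, against 18.2 and 17.8 CPM under DMSO. Both lines showed a clear gap between the treatments. SCR had 224 and 210.1 CPM after MPS1i, against 14.2 and 12.6 CPM under DMSO. The log2 fold change was 0.24 ± 0.15 in DKO (SE, adjusted p = 0.322), 4.13 ± 0.10 in STING (4.25e-21), 2.74 ± 0.08 in MAVS (3.58e-19) and 4.01 ± 0.08 in SCR (2.38e-23). USP41, a near copy of USP18 that may share its reads, held 0 to 43 counts a library and at most 2.08 per 100 counts of USP18.

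**Figure D1:**
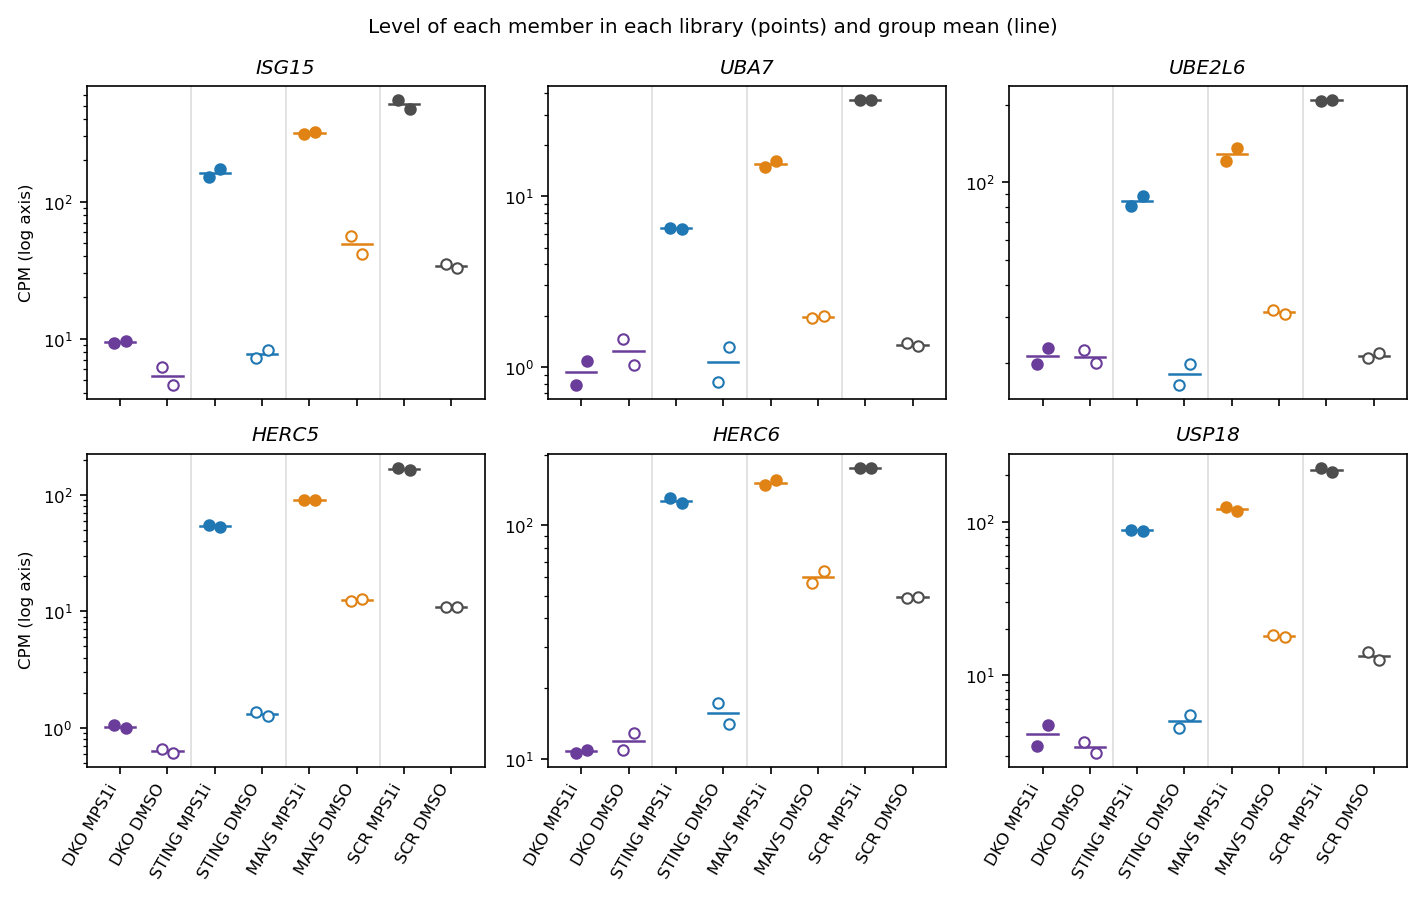
Each panel plots one member's level in CPM on a log axis in each library (points, filled for MPS1i and open for DMSO), with the mean of the 2 libraries as a line, in the DKO, STING, MAVS and SCR lines. After MPS1i, ISG15 stands at 9.24 and 9.60 CPM in DKO and at 549 and 476 CPM in SCR, and in every panel the MPS1i level climbs from DKO through STING and MAVS to SCR.

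The count of 0 members called in DKO (edgeR) became 1 under some other settings. At an unadjusted p under 0.05, 2 members passed, ISG15 and HERC5, both higher after MPS1i, and DESeq2 called ISG15 alone. ISG15 was called in 9 of the 23 alternative settings, with a log2 fold change of 0.60 to 1.03 over all of them. Leaving out either DMSO replicate of the MAVS-labelled line, whose ISG15 values were 56.4 and 41.2 CPM, took the adjusted p of ISG15 in DKO to 0.00199 or 0.00187. The other 5 members were called in DKO under none of these settings.

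**Figure D2:**
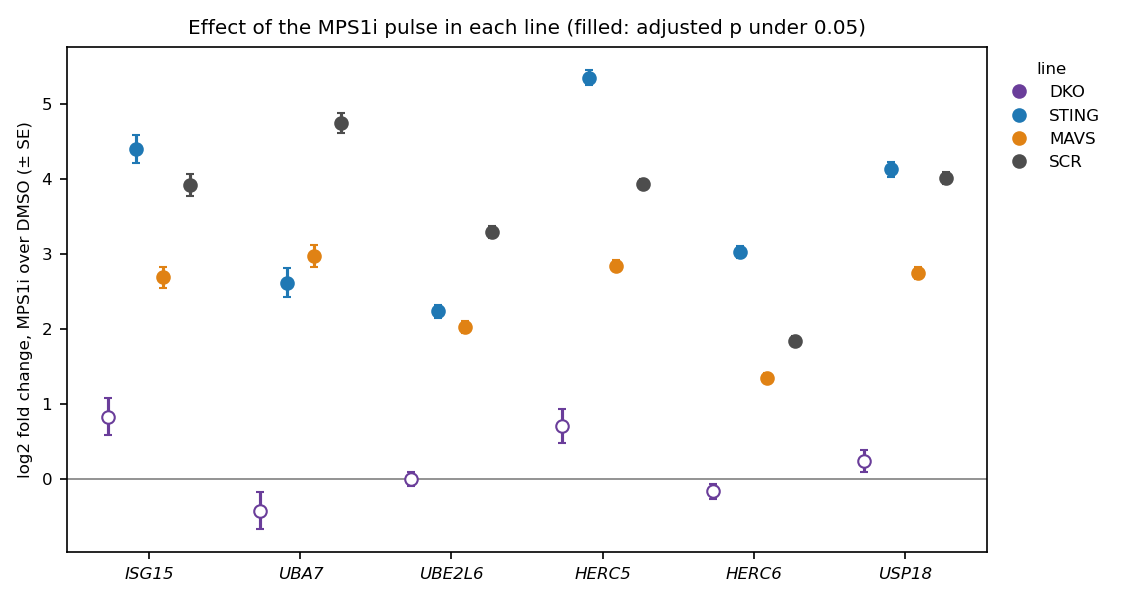
Points give the log2 fold change of MPS1i over DMSO for each member in the DKO, STING, MAVS and SCR lines, bars give its standard error, and filled points have an adjusted p under 0.05. All DKO points are open and lie between -0.42 and 0.83, while those of the other lines lie between 1.35 and 5.34.

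Under DMSO, the calls split the members in 2 when set against SCR, whose libraries enter every such comparison. Whether the members differ from each other was not tested. ISG15, HERC5, HERC6 and USP18 were lower than in SCR both in the DKO-labelled line and in the STING line, whereas UBA7 and UBE2L6 passed the test in neither. That made 4 of 6 members lower in DKO, where 15.3% of all tested genes were called lower, and 4 of 6 in STING, where 5.47% were. HERC5 stood at 5.79% of its SCR level in DKO and 12% in STING, with log2 differences of -4.11 ± 0.13 (SE, adjusted p = 3.78e-18) and -3.05 ± 0.12 (1.93e-15). ISG15 stood at 15.8% in DKO and 22.9% in STING, HERC6 at 24.2% and 31.9%, and USP18 at 25.4% and 37.6%. UBE2L6 stood at 99.1% of its SCR level in DKO (log2 -0.02 ± 0.09, adjusted p = 0.918) and 84.9% in STING (-0.24 ± 0.09, 0.109). UBA7 stood at 91.6% in DKO (-0.16 ± 0.21, 0.603) and 78.8% in STING (-0.37 ± 0.23, 0.355).

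The MAVS-labelled line went the other way under DMSO. UBE2L6, USP18 and HERC6 were higher than in SCR, which made 3 of 6 members, where 3.98% of all tested genes were called higher. Their log2 differences were 0.57 ± 0.09 (SE, adjusted p = 2.31e-04), 0.42 ± 0.09 (0.00464) and 0.29 ± 0.07 (0.0111). ISG15 gave 0.54 ± 0.15 (adjusted p = 0.0692), UBA7 0.53 ± 0.20 (0.121) and HERC5 0.20 ± 0.08 (0.127). HERC6 lost its call without any one of 3 libraries, both SCR DMSO replicates and MAVS DMSO replicate 2, and USP18 without SCR DMSO replicate 2 or MAVS DMSO replicate 1. ISG15 was called without MAVS DMSO replicate 2 (0.74, adjusted p = 0.00139) and with DESeq2 (0.52, 0.0173).

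After MPS1i, all 6 members were lower than in SCR in each of the other lines. The share of all tested genes called lower was 22.4% in DKO, 17.3% in STING and 8.47% in MAVS. Relative to SCR after MPS1i, HERC5 stood at 0.614% in DKO, 32.3% in STING and 54.1% in MAVS. ISG15 stood at 1.84%, 31.7% and 62.0% in the same order, USP18 at 1.90%, 40.4% and 55.6%, and UBA7 at 2.58%, 17.8% and 42.5%. HERC6 stood at 6.10%, 72.5% and 86.8%, and UBE2L6 at 10.2%, 40.8% and 61.9%. UBA7 was therefore the lowest member, relative to SCR, in the STING line and in the MAVS-labelled line, and HERC6 the least reduced in both. The HERC6 difference in MAVS, log2 -0.20 ± 0.06 (SE, adjusted p = 0.0238), was no longer called without any one of the SCR or MAVS MPS1i libraries.

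**Figure D3:**
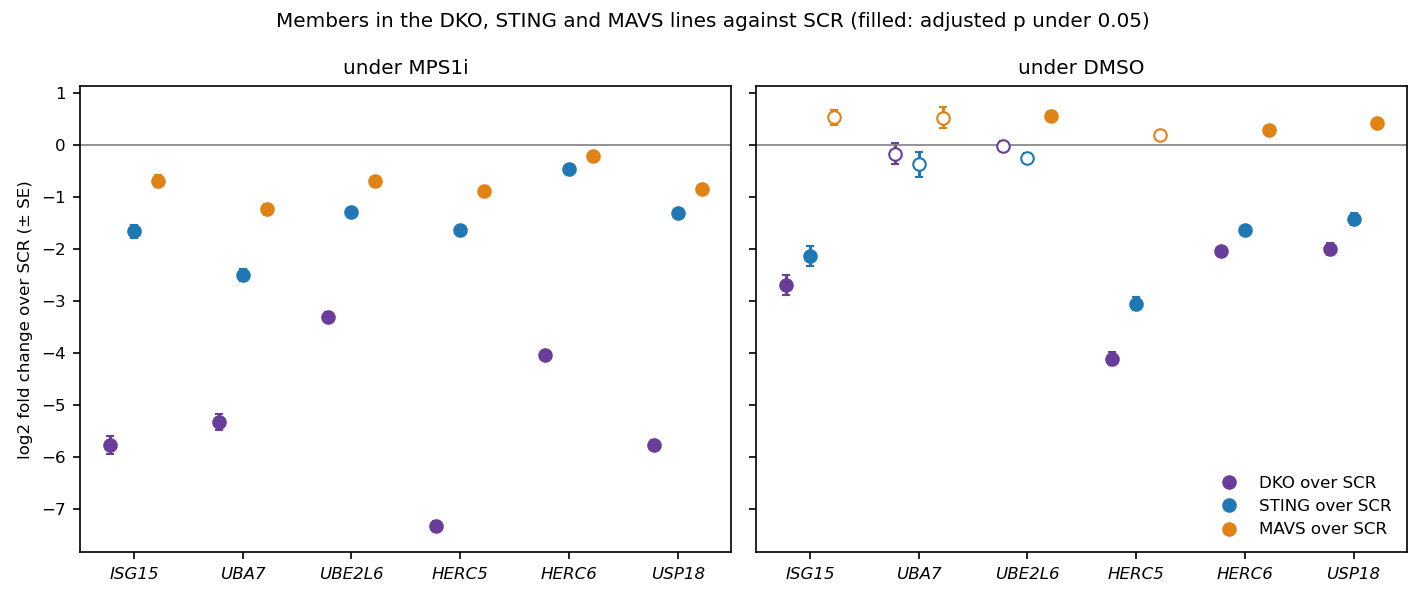
Points give log2 fold changes of the DKO, STING and MAVS lines over SCR for each member, with standard errors as bars, under MPS1i (left) and under DMSO (right), and filled points have an adjusted p under 0.05. Under MPS1i all 18 points are filled and below 0, whereas under DMSO the DKO and STING points of UBA7 and UBE2L6 are open and lie between -0.37 and -0.02.

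The same libraries also allow the other lines to be set against each other, with groups shared between comparisons. After MPS1i, all 6 members were lower in DKO than in STING (7.69% of all tested genes called lower), lower in DKO than in MAVS (14.2%) and lower in STING than in MAVS (5.83%). HERC5 again had the largest of these differences for DKO, at log2 -5.70 ± 0.10 against STING and -6.45 ± 0.10 against MAVS (SE, adjusted p = 6.54e-24 and 1.86e-25). UBA7 had the largest between STING and MAVS, at -1.26 ± 0.12 (3.77e-08), and HERC6 the smallest, at -0.26 ± 0.06 (0.00734), which was not called without STING MPS1i replicate 2 or MAVS MPS1i replicate 2.

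Under DMSO, all 6 members were lower in STING than in MAVS (2.15% of all tested genes called lower) and in DKO than in MAVS (8.21%). In both comparisons UBA7 was the weakest call, at log2 -0.90 ± 0.24 (SE, adjusted p = 0.0275) for STING over MAVS and -0.69 ± 0.22 (0.0282) for DKO over MAVS. The first was lost without STING DMSO replicate 1 or either MAVS DMSO replicate, the second without DKO DMSO replicate 2 or either MAVS DMSO replicate. Both were lost with DESeq2 and when only the groups compared were fitted (adjusted p = 0.104 for STING over MAVS and 0.178 for DKO over MAVS, edgeR). Between DKO and STING, 3 of 6 members were lower in DKO (7.81% of all tested genes called lower): HERC5 (-1.06 ± 0.22, adjusted p = 0.00415), USP18 (-0.57 ± 0.15, 0.00869) and HERC6 (-0.39 ± 0.10, 0.00508). ISG15 (-0.55 ± 0.26, 0.206) did not pass, but did without either MAVS DMSO replicate, with DESeq2 and with only the groups compared (adjusted p = 0.0407). UBE2L6 (0.22 ± 0.10, 0.118) did not pass, but was called higher in DKO with no filter on low counts (0.23, adjusted p = 0.0386), and UBA7 (0.21 ± 0.25, 0.661) did not pass. Fitting only the groups compared ended the calls of HERC5 (-1.06, adjusted p = 0.0806) and USP18 (-0.58, 0.0642). Leaving out STING DMSO replicate 1 ended the calls of HERC5 and HERC6, at -1.01 and -0.23. The call of HERC6 also ended without DKO DMSO replicate 1, and that of USP18 without STING DMSO replicate 2 or DKO DMSO replicate 2.

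Whether MPS1i acted differently in the lines was tested by interaction terms, the difference between 2 treatment effects. In DKO the effect was smaller than in SCR for all 6 members (14.5% of all tested genes called lower), by log2 -2.00 ± 0.12 for HERC6 up to -5.16 ± 0.29 for UBA7 (SE, adjusted p = 8.81e-13 and 3.28e-13). In MAVS it was also smaller for all 6 (4.52%), by -0.49 ± 0.09 for HERC6 up to -1.76 ± 0.23 for UBA7 (8.32e-04 and 5.87e-06). The STING line split the members. Its effect was smaller than in SCR for UBA7 (-2.12 ± 0.28, 4.04e-06) and UBE2L6 (-1.05 ± 0.12, 8.67e-07), where 9.55% of all tested genes were called lower. It was larger for HERC5 (1.42 ± 0.15, 1.16e-07) and HERC6 (1.18 ± 0.10, 7.39e-09), where 9.97% were called higher. For ISG15 (0.48 ± 0.24, 0.224) and USP18 (0.12 ± 0.14, 0.619) the difference did not pass, though ISG15 was called without either MAVS DMSO replicate (0.48, adjusted p = 0.0428 or 0.0418).

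HERC5 and HERC6, with the larger fold in STING, stood at 12% and 31.9% of SCR there under DMSO, and ended below SCR after MPS1i. ISG15 and USP18, whose difference from SCR in fold did not pass, stood at 22.88% and 37.65% under DMSO. Whether the DMSO level bears on the fold was not tested. Set against the MAVS-labelled line, the effect in STING was larger for 4 of 6 members (1.96% of all tested genes called higher): HERC5 (2.50 ± 0.15, SE, adjusted p = 1.26e-11), ISG15 (1.71 ± 0.24, 0.00439), HERC6 (1.67 ± 0.10, 5.29e-11) and USP18 (1.38 ± 0.14, 1.57e-07). For UBA7 (-0.36 ± 0.28, 0.557) and UBE2L6 (0.20 ± 0.12, 0.407) it did not pass. ISG15, HERC5, HERC6 and USP18 were also the members lower than SCR under DMSO in the STING line, and the STING DMSO libraries enter both comparisons.

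**Figure D4:**
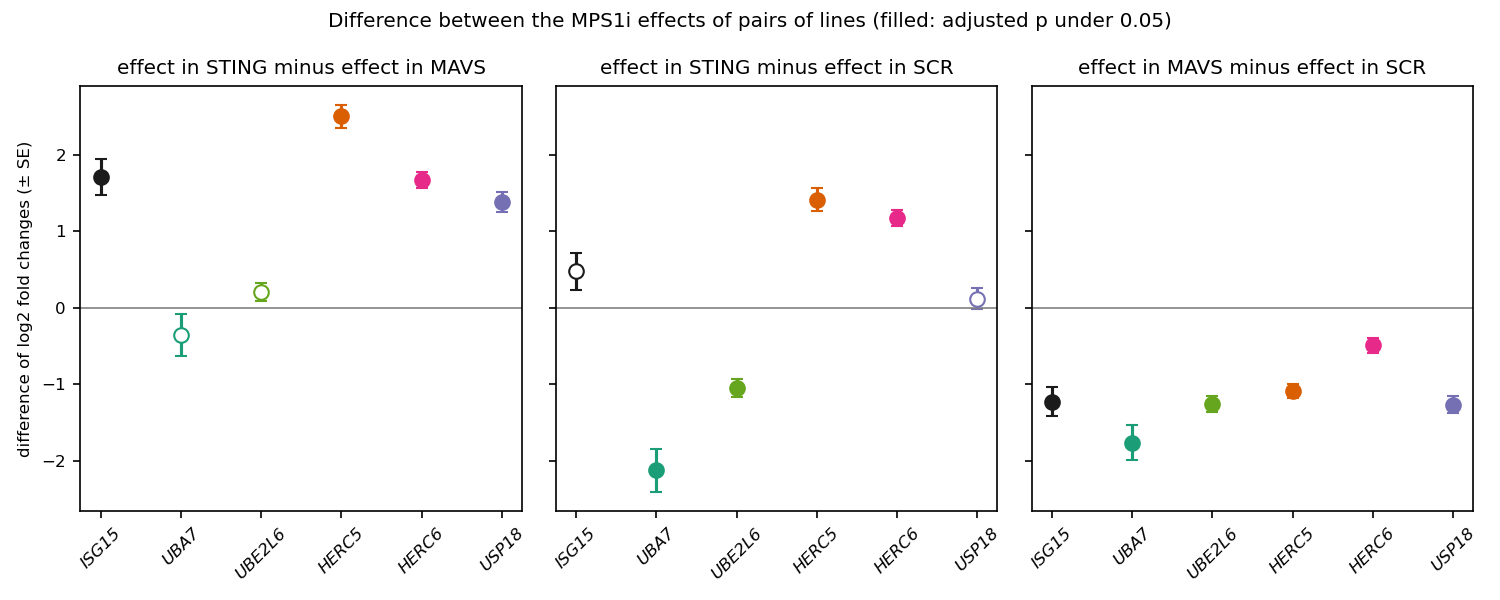
Each panel gives, for one pair of lines, the difference between the MPS1i effects (log2 scale, ± SE) of the 6 members, with filled points at an adjusted p under 0.05. HERC5 is at 2.50 for STING minus MAVS and 1.42 for STING minus SCR, UBA7 is at -2.12 for STING minus SCR, and all points of MAVS minus SCR are filled and below 0.

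Ranked by mean CPM, every member had the same top 5 groups, in the order SCR after MPS1i, MAVS after MPS1i, STING after MPS1i, MAVS under DMSO and SCR under DMSO. The first 3 steps of that order, down to MAVS under DMSO, passed the test for all 6. The step between MAVS and SCR under DMSO passed for UBE2L6, HERC6 and USP18. Below SCR under DMSO the members parted: the next step passed for ISG15, HERC5, HERC6 and USP18, with log2 differences of 1.43 to 3.05, and for UBA7 (0.16 ± 0.21, SE) and UBE2L6 (0.01 ± 0.09) it did not. Among the lowest 3 groups, both DKO groups and STING under DMSO, 1 further neighbouring pair differed in 1 member, HERC6, which was higher in STING than in DKO under DMSO (0.39 ± 0.10, adjusted p = 0.00508).

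Levels of different genes were compared only per length, as CPM per kilobase of merged exons from GENCODE v29, whose gene spans equal the deposited ones for ISG15 and UBE2L6 and differ for the other members. In SCR after MPS1i, ISG15 stood at 545 CPM per kilobase, USP18 at 102, UBE2L6 at 94.6, HERC5 at 34.8, HERC6 at 30.4 and UBA7 at 8.0. With the longest transcript as the length, UBE2L6 (132) came above USP18 (102), HERC6 came to 46.6, and the rest of that order held. In the DKO-labelled line after MPS1i, ISG15 stood at 10.0 and UBE2L6 at 9.68 CPM per kilobase, with HERC5 and UBA7 at 0.214 and 0.206. With the longest transcript ISG15 (11.97) came below UBE2L6 (13.53) there, so the order of these 2 depends on the length used.

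The gene whose profile was nearest to a member's was sought among the 13882 other genes whose mean reached 1 CPM, as the root mean square difference of centred log2 CPM over the 16 libraries. The genes named next are the nearest that are not members. Nearest to UBE2L6 were TRIM5 (0.147), a capsid-binding restriction factor, NLRC5 (0.170), which switches on MHC class I genes, and TAP1 (0.171), a peptide transporter of that pathway. UBA7 was nearest to TNFSF10 (0.379), which encodes TRAIL, PSMB9 (0.393), an immunoproteasome subunit, and PLEKHA4 (0.399). HERC5 was nearest to MX1 (0.285), a dynamin-like antiviral GTPase, IFIT1 (0.333), which binds foreign RNA, and XAF1 (0.344). ISG15 was nearest to OAS2 (0.329), an enzyme that double-stranded RNA activates, HSH2D (0.374) and OASL (0.429), with the member USP18 (0.332) between OAS2 and HSH2D. USP18 was nearest to EPSTI1 (0.317), the RNA sensor IFIH1 (0.323) and HSH2D (0.326), and HERC6 to PLSCR1 (0.224), the helicase-like DDX60 (0.287) and OAS3 (0.290).

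Among the members, ISG15 and USP18 had the most alike profiles (0.332) and UBE2L6 and HERC5 the least (1.77). Likeness here came from the same 16 libraries in which the members were described. The neighbours were chosen for likeness over all these libraries, DMSO included, so their DMSO levels describe that choice and are no further result. Under DMSO, TRIM5 stood at 83.3% of its SCR level in DKO and 72.8% in STING, and NLRC5 at 85.0% and 81.4%. MX1 stood at 6.62% and 20.9% in the same lines, and OAS2 at 11.9% and 26.5%. After MPS1i in DKO, OAS2 (log2 0.78 ± 0.07, SE, adjusted p = 1.59e-08), MX1 (0.72 ± 0.11, 1.08e-04) and OASL (0.78 ± 0.18, 0.00526) were called higher. The other neighbours of ISG15 and HERC5 did not pass there, HSH2D at 0.15 ± 0.67 (adjusted p = 0.927), IFIT1 at 0.12 ± 0.17 (0.728) and XAF1 at 0.57 ± 0.33 (0.28). HSH2D rested on 2 to 5 counts a library in DKO, so its lack of a call says little. ISG15 (0.83 ± 0.24, 0.0519) and HERC5 (0.71 ± 0.22, 0.0896) had folds of the size of the called genes, and the differences between genes were not tested.

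**Figure D5:**
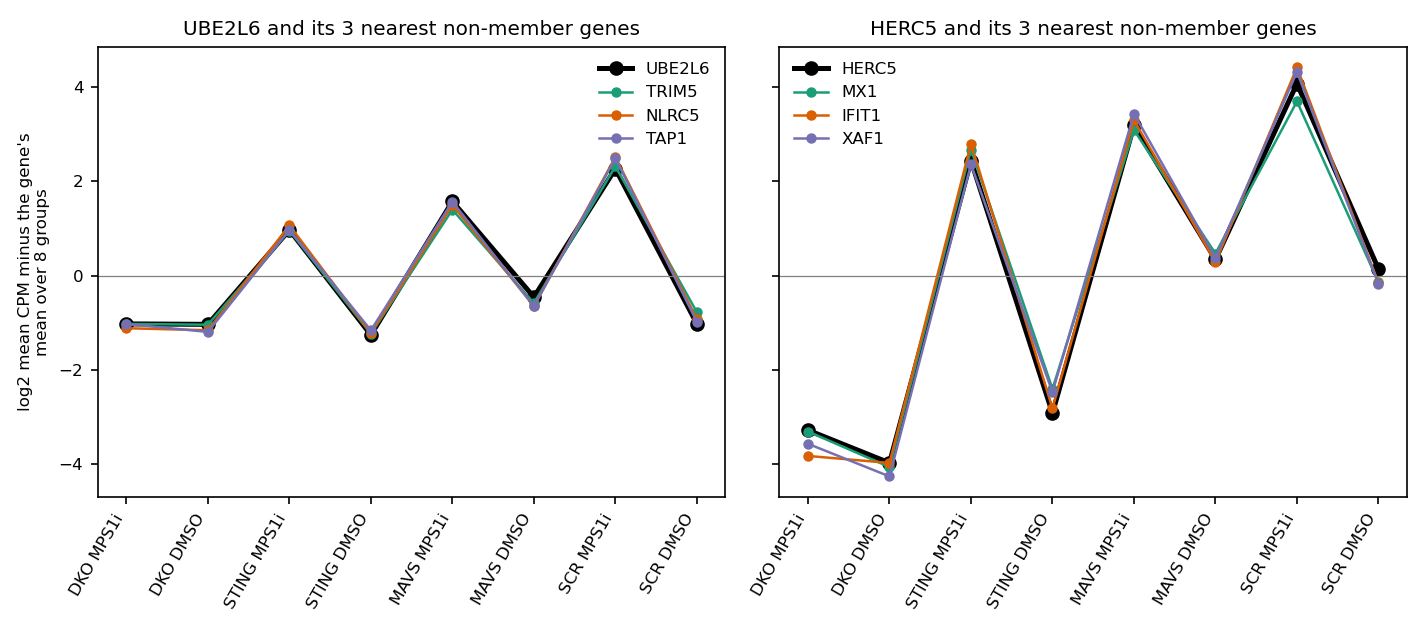
The log2 mean CPM of UBE2L6 (left, black) and HERC5 (right, black) and of their 3 nearest non-member genes is plotted over the 8 groups, each centred on its own mean. UBE2L6, TRIM5, NLRC5 and TAP1 stand at 72.8% to 99.1% of their SCR level in DKO and STING under DMSO, and HERC5, MX1, IFIT1 and XAF1 at 5.79% to 20.9%. The nearest genes were chosen for likeness over these same libraries.

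The lists that follow are read against the share of all tested genes called in SCR, 26.0% higher and 24.0% lower. Of 12 tested partners (other E3 ligases, cross-reactive proteases and binding proteins of the system), 3 rose and 4 fell in SCR, near those shares, with a median log2 fold change of -0.02. STAT2, which tethers USP18 to the receptor, gave -0.02 ± 0.05 in DKO (SE, adjusted p = 0.869) and rose by 2.20 ± 0.05 in STING (2.07e-21), 1.67 ± 0.05 in MAVS (3.41e-19) and 2.70 ± 0.05 in SCR (5.24e-24). TRIM25, which has been reported as an ISG15 ligase, was lower in DKO (-0.21 ± 0.04, 0.00180) and rose by 1.31 ± 0.04 in STING, 0.61 ± 0.04 in MAVS and 0.97 ± 0.04 in SCR. IFNAR2, the receptor chain that USP18 binds, rose in SCR by 0.39 ± 0.09, whereas IFNAR1 (-0.20 ± 0.05), ARIH1 (-0.19 ± 0.05), USP16 (-0.36 ± 0.06) and USP13 (-0.91 ± 0.06) fell there. USP13 also fell in the other lines, by 0.56 in DKO, 0.68 in STING and 0.64 in MAVS on the log2 scale.

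Of 16 reported ISG15 substrates, 13 rose and 1 fell in SCR, where 26.0% of all tested genes rose, with a median log2 fold change of 0.49 (0.03 over all tested genes). Among those with the smallest adjusted p in SCR are genes that are themselves interferon-induced: DDX58, the RNA sensor RIG-I (3.44 ± 0.06, SE), IFIH1 (3.31 ± 0.07) and MX1 (3.83 ± 0.07). TSG101, of the endosomal sorting machinery, fell (-0.16 ± 0.05), and BECN1 (0.04 ± 0.05) and PPM1B (0.002 ± 0.06) did not pass.

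The enzymes of other modifiers stayed within log2 -0.94 and 0.69 in SCR. Of 9 other E1 genes, 3 rose (UBA6, UBA1 and UBA3) and 3 fell (SAE1 among them) in SCR, between log2 -0.32 and 0.69, the highest being UBA6 (0.69 ± 0.05, SE), an activating enzyme for ubiquitin and FAT10. Of 36 other E2 genes, 7 rose and 13 fell, from UBE2C (-0.94 ± 0.10), which serves the anaphase-promoting complex, to UBE2Z (0.54 ± 0.05), the E2 that works with UBA6. UBE2L3, the close relative of UBE2L6, rose by 0.11 ± 0.04. Of 26 other HECT ligases, 7 rose and 16 fell, between -0.63 and 0.67, including TRIP12 (0.67 ± 0.04) and HUWE1 (-0.42 ± 0.04). HERC3, 86270 bases beyond HERC5, rose by 0.54 ± 0.12 in SCR, while in STING it gave 0.04 ± 0.13 (adjusted p = 0.848). Of 14 proteases of other modifiers, 1 rose (SENP1, 0.14 ± 0.05) and 6 fell, among them UFSP2 (-0.72 ± 0.09) and SENP6 (-0.45 ± 0.06).

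Of 19 other ubiquitin-like modifier genes, 7 rose and 6 fell in SCR, with a median log2 fold change of 0.12. MAP1LC3B (-0.65 ± 0.05, SE) and GABARAP (-0.59 ± 0.05), which are joined to lipid in autophagy, fell, and their relative GABARAPL1 rose (0.50 ± 0.04). UBD, which encodes the interferon-inducible modifier FAT10 and is named here after its values were seen, gave -0.35 ± 0.44 in DKO (adjusted p = 0.664) and 1.01 ± 0.45 in STING (0.10), and rose by 1.80 ± 0.46 in MAVS (0.00347) and 3.80 ± 0.37 in SCR (4.87e-09).

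Of 15 interferon signalling genes, 9 rose in STING, 10 in MAVS and 13 in SCR, where 15.5%, 17.1% and 26.0% of all tested genes rose. In DKO 3 rose, IRF1 (log2 0.36 ± 0.08, SE), IRF7 (0.77 ± 0.19) and IRF9 (0.49 ± 0.09), and JAK1 fell (-0.13 ± 0.04). Of 10 interferon genes, 6 had enough reads to test, and 4 rose in STING, 4 in MAVS and 5 in SCR (IFNB1, IFNL1, IFNL4, and IFNL2 and IFNL3, near copies that may share reads). The filter can admit a gene through the groups where it is high, so the number that rose among those tested is not a separate result. IFNB1 had 0 and 0 counts after MPS1i in DKO, against 0 and 1 under DMSO, and 165 and 222 counts after MPS1i in SCR, against 0 and 1 under DMSO. IFNL1 had 0 counts in all 4 DKO libraries, which allows up to 3 counts in each for counting error alone, and 462 and 509 counts after MPS1i in SCR, against 5 and 4 under DMSO. In DKO, where 6.53% of all tested genes rose, 4 of the 6 OAS and MX genes rose: MX1 (0.72 ± 0.11), OAS1 (0.63 ± 0.06), OAS2 (0.78 ± 0.07) and OASL (0.78 ± 0.18). The IFIT genes did not pass there, with IFIT1 at 0.12 ± 0.17 (SE, adjusted p = 0.728), IFIT2 at 0.31 ± 0.17 (0.288), IFIT3 at 0.12 ± 0.14 (0.668) and IFIT5 at 0.09 ± 0.06 (0.41), nor did the interferon genes tested (adjusted p of 0.425 or more). With 0 or 1 counts a library in DKO, IFNB1 and IFNL1 had too few reads to be called there.

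Library totals ran from 19893784 to 49769938 counts. TTK, the target of the drug, was lower after MPS1i in every line, by log2 0.74 to 0.94. Of 8 markers of lung epithelium, 5 had a mean of at least 1 CPM, and KRT19, NKX2-1 and NAPSA did not. Of 8 immune cell markers, 0 reached 1 CPM, 2 had 0 counts in every library, and their summed level was 0.246 to 1.81 CPM a library, although both that could be tested were called in at least 1 line. LYZ was called higher after MPS1i in STING (2.04 ± 0.70, SE), MAVS (1.83 ± 0.63) and SCR (1.48 ± 0.52), and CD14 in STING (1.90 ± 0.52). Of 6 stromal and endothelial markers, COL1A1 and PECAM1 reached 1 CPM, with a summed level of the list of 4.39 to 10.6 CPM. COL1A1 was called higher after MPS1i in STING (0.52 ± 0.16) and SCR (0.80 ± 0.14), and PECAM1 in SCR (0.72 ± 0.25). In DKO these 4 markers did not pass, with LYZ at 0.50 ± 0.61, CD14 at 0.70 ± 0.45, COL1A1 at 0.27 ± 0.15 and PECAM1 at -0.42 ± 0.26. The part of these markers in the results was not tested. Overlapping annotated genes held at most 2 counts a library at ISG15 and 0 at UBA7.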

How the data were processed

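RNA was poly(A)-enriched and made into stranded libraries, per the labels' protocols. The submitters' processing notes name Trim Galore, cutadapt, Trimmomatic, STAR, featureCounts and GRCh38, and versions and strand setting are not given in the sources used here. The deposited table gives whole-number read counts for each gene, not normalized by the authors as far as its values and headers show. All columns matched a library by name. The members and gene lists were chosen with earlier results of these data known.

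R 4.3.3 was used with edgeR 4.0.16. Genes were kept by filterByExpr (minimum count 10, minimum total 15), TMM factors ran from 0.958 to 1.02, and 1 mean was fitted for each of 8 groups (8 residual degrees of freedom) with robust dispersions and two-sided quasi-likelihood F-tests. There were 20 comparisons, adjusted by Benjamini-Hochberg within each. An SE is the absolute log2 fold change over the square root of F. CPM used TMM-scaled totals. Promoter windows came from RefSeq. Library totals of 19893784 to 49769938 counts set the precision. The procedure was tested on simulated data.

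Named were all 6 members, the 3 nearest genes for each, up to 4 genes per list with the smallest adjusted p, and all genes of a count of 5 or fewer; some genes that this rule takes in are counted in their lists and not reported here by name. Alternatives were other scalings and filters, DESeq2 1.42.0, fits on the compared groups alone, a replicate block, another length, and each library left out.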

Additional observations from a re-analysis of the deposited data

Results flagged for a closer look

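The effect of MPS1i on the members differed between lines by interaction terms (edgeR quasi-likelihood test, adjusted over all genes tested) in 20 of 24 tests of a member in a pair of lines. Of all tested genes, 14.5% were called lower for DKO minus SCR and 4.52% for MAVS minus SCR. For STING minus SCR 9.55% were called lower and 9.97% higher, and for STING minus MAVS 1.96% were called higher. Each value here is the difference between 2 log2 fold changes, each from 2 MPS1i and 2 DMSO libraries.

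The effect in DKO minus that in SCR was -3.08 for ISG15, -5.16 for UBA7, -3.28 for UBE2L6, -3.22 for HERC5, -2.00 for HERC6 and -3.77 for USP18. The effect in MAVS minus that in SCR was -1.23 for ISG15, -1.76 for UBA7, -1.26 for UBE2L6, -1.09 for HERC5, -0.49 for HERC6 and -1.26 for USP18. The effect in STING minus that in SCR was -2.12 for UBA7, -1.05 for UBE2L6, 1.42 for HERC5 and 1.18 for HERC6. The effect in STING minus that in MAVS was 1.71 for ISG15, 2.50 for HERC5, 1.67 for HERC6 and 1.38 for USP18.

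The comparisons with SCR share the same 4 SCR libraries. STING minus MAVS is STING minus SCR less MAVS minus SCR, so the tests are not independent. The 4 tests that did not pass were ISG15 and USP18 for STING minus SCR and UBA7 and UBE2L6 for STING minus MAVS.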

How the results depend on the processing

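Of the 20 counts of members called, 17 stayed within 1.5 times under every alternative run. The 0 members called for MPS1i in DKO became 1 (ISG15) with RLE or upper quartile scaling, a filter of 1 CPM, only the groups compared, or DESeq2, and 0 to 1 with a library left out. With a library left out, MAVS against SCR under DMSO gave 1 to 3 members and DKO against STING under DMSO 1 to 4. Some differences near 0 changed sign without a call. UBE2L6 for MPS1i in DKO gave -0.003325 with no filter and -0.098 to 0.11 with a library left out. UBE2L6 in DKO against SCR under DMSO gave 0.009576 with upper quartile scaling and -0.11 to 0.0598 with a library left out. With a library left out, UBA7 gave -0.42 to 0.0874 in DKO against SCR and -0.12 to 0.54 in DKO against STING, both under DMSO, and USP18 gave -0.0288 to 0.25 for STING minus SCR. Without a filter, UBE2L6 was called lower in STING than in SCR under DMSO (-0.25, adjusted p = 0.0177).

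Fitting only the groups compared moved the count over all genes to 1629 (2648 as reported) for MPS1i in DKO, 1141 (700) for STING minus MAVS, 1983 (3077) for DKO against STING and 1469 (2897) for DKO against MAVS, both under DMSO. It uses fewer libraries. Leaving out 1 library moved such counts by over 1.5 times in 12 comparisons (37 counts, 35 of them without a library of a group compared), and the shares of all tested genes printed beside the members rest on these counts. Under DMSO they ran from 339 to 1735 (1177 as reported) for MAVS against SCR, 897 to 2625 (1826) for STING against SCR, 394 to 1169 (831) for STING against MAVS, 1702 to 3023 (3077) for DKO against STING and 1761 to 2901 (2897) for DKO against MAVS. After MPS1i they ran from 1794 to 3348 (2859) for MAVS against SCR, 978 to 2463 (1926) for STING against MAVS and 1473 to 3020 (2537) for DKO against STING. For the MPS1i effect they ran from 1433 to 3120 (2648) in DKO, 3364 to 5843 (5269) in STING, 851 to 1754 (1336) for MAVS minus SCR and 369 to 1115 (700) for STING minus MAVS. The other 2 counts were those without either DKO DMSO replicate, for STING minus MAVS. The cause of the other changes was not tested. Deviations of same-numbered replicates had a median correlation of 0.0301 over 28 pairs of groups (-0.395 to 0.373), with 10 pairs above 0.1. With a replicate block 6 members were called in STING, MAVS and SCR and 0 in DKO, with no call of a member changed. Depth limits HERC5 in DKO, with 17 to 36 counts a library, and UBA7 there, with 23 to 38.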
